A study of Mus musculus with 12 samples.

Results

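The 8 genes described here encode transcription factors that set and hold the identity of the intestinal epithelium: the caudal homeobox factors Cdx1 and Cdx2, the nuclear receptors Hnf4a and Hnf4g, the Krüppel-like zinc finger factors Klf4 and Klf5, the ETS factor Elf3 and the forkhead factor Foxa2. They were taken by gene symbol as a set of known factors, with earlier results of these data known, and all 8 were found among the 47632 genes of each table. RNA was sequenced from colon epithelial cells, released with EDTA, of C57/BL6 mice whose Tfeb alleles are floxed. In Tfeb ΔIEC animals, Cre recombinase driven by the villin promoter removes Tfeb from the intestinal epithelium, and the Tfeb flox/flox controls, labelled WT, carry the same alleles without Cre. The genotypes were compared on Day 0, Day 4 and Day 11 of an experiment with dextran sulfate sodium (DSS), a chemical that injures the colon epithelium, for which the labels give a concentration of 2.5% and the study's methods a slightly lower one. By the study's account Day 0 animals were untreated, Day 4 fell at the end of DSS feeding, and Day 11 followed a recovery period on water without DSS. DSS experiments used littermates matched for sex. Each of the 6 groups held 2 animals, 12 in all. By the labels the animals were 10 and 12 weeks old on Day 0, 12 weeks on Day 4 and 10 weeks on Day 11.

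CDX factors are known as the factors that make the hindgut epithelium intestinal, and HNF4 factors act with them at the regulatory regions of absorptive cell genes. KLF5 is known from dividing crypt cells and KLF4 from cells that have stopped dividing near the surface, so the pair is often read along the crypt axis. ELF3 is an epithelial factor linked to differentiation and to the response to injury, and FOXA2 opens chromatin in endoderm and is known from goblet and enteroendocrine cells.

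All values are FPKM (sequenced fragments per kilobase of transcript, corrected for library size), a level per transcript length, and the authors deposited 1 pooled value per gene and group. They therefore carry no error between animals, and no difference below has a replicate check or a p-value. The number of reads behind them is unknown. A log2 fold change compares Tfeb ΔIEC with Tfeb flox/flox on the log2(FPKM + 1) scale, which understates differences of low genes. A gene was called higher or lower where this difference reached 2-fold and at least 1 genotype had 1 FPKM or more, and such a call describes size only. Each day was normalized separately, so levels on different days are set side by side with that limit.

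Tfeb had 0.901 FPKM in Tfeb flox/flox and 0.185 FPKM in Tfeb ΔIEC animals on Day 0. On Day 4 it had 1.08 FPKM in Tfeb flox/flox and on Day 11 it had 1.18 FPKM, and the Tfeb ΔIEC groups had a listed value of 0 on each of these days. The epithelial label was met in every group: all 7 epithelial markers passed the filter on each day, and Epcam lay between 1110 and 2020 FPKM. Of 10 leukocyte markers, 2 passed on Day 0 and 4 on each of the other days, with summed levels between 4.08 and 10.9 FPKM, and Ptprc, the pan-leukocyte marker, stayed between 0.287 and 0.79 FPKM. Of 7 stromal and endothelial markers, only Vim passed, and the collagen gene Col1a1 was listed at 0 in 5 groups. Days 4 and 11 were nearly alike: among genes above 0 on both days, 14.3% in the controls and 10.2% in Tfeb ΔIEC had the same deposited FPKM, although the labels name different animals. No member was identical, but the members' Day 11 level was between 0.923 and 1.45 times the Day 4 level in Tfeb flox/flox and between 0.984 and 1.23 times in Tfeb ΔIEC. The Day 11 values are therefore given beside those of Day 4 and not as a second support for them.

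On Day 0 none of the 8 genes was called. This stood against a background of 13.5% of the 9993 genes tested called higher and 16.1% called lower. On Day 4, 3 members were called higher in Tfeb ΔIEC (Elf3, Hnf4a and Hnf4g) and 3 lower (Klf5, Cdx1 and Klf4), where 25.6% of 9371 genes were called higher and 26.1% lower. On Day 11 the same 6 genes were called, against 26.1% of 9365 genes higher and 25.7% lower. All 8 members passed the filter on each day, 4 of them on each side of 0. The median log2 fold change of the members was -0.03, 0.08 and -0.07 on Days 0, 4 and 11, and that of all genes 0.06, 0.06 and 0.08. Without regard to sign, the median size was 0.56, 1.17 and 1.16 in the members and 0.63, 1.03 and 1.03 in all genes. In this setting the members therefore did not lean one way as a list, and their typical size was close to that of all genes. The balance depends on the setting. With each group divided by the sum of its FPKM, 4 were higher and 1 lower on Day 4, with a median of 0.74. After subtraction of the median of genes of like length, 1 was higher and 3 lower, with a median of -0.45. Calls over all genes were 49.6% higher ones on Day 4 and 50.4% on Day 11, but these shares were 73.3% and 73.9% when each group was divided by the sum of its FPKM. That division raised the median of all genes from 0.06 to 0.75 on Day 4 and from 0.08 to 0.77 on Day 11. The sums were 975316 FPKM in Tfeb flox/flox and 973878 FPKM in Tfeb ΔIEC on Day 0. On Day 4 they were 1464717 and 820344 FPKM, a ratio of 1.79, and on Day 11 the ratio was 1.78. Control levels that are higher on Days 4 and 11 than on Day 0 are not corrected for this.

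**Figure D1:**
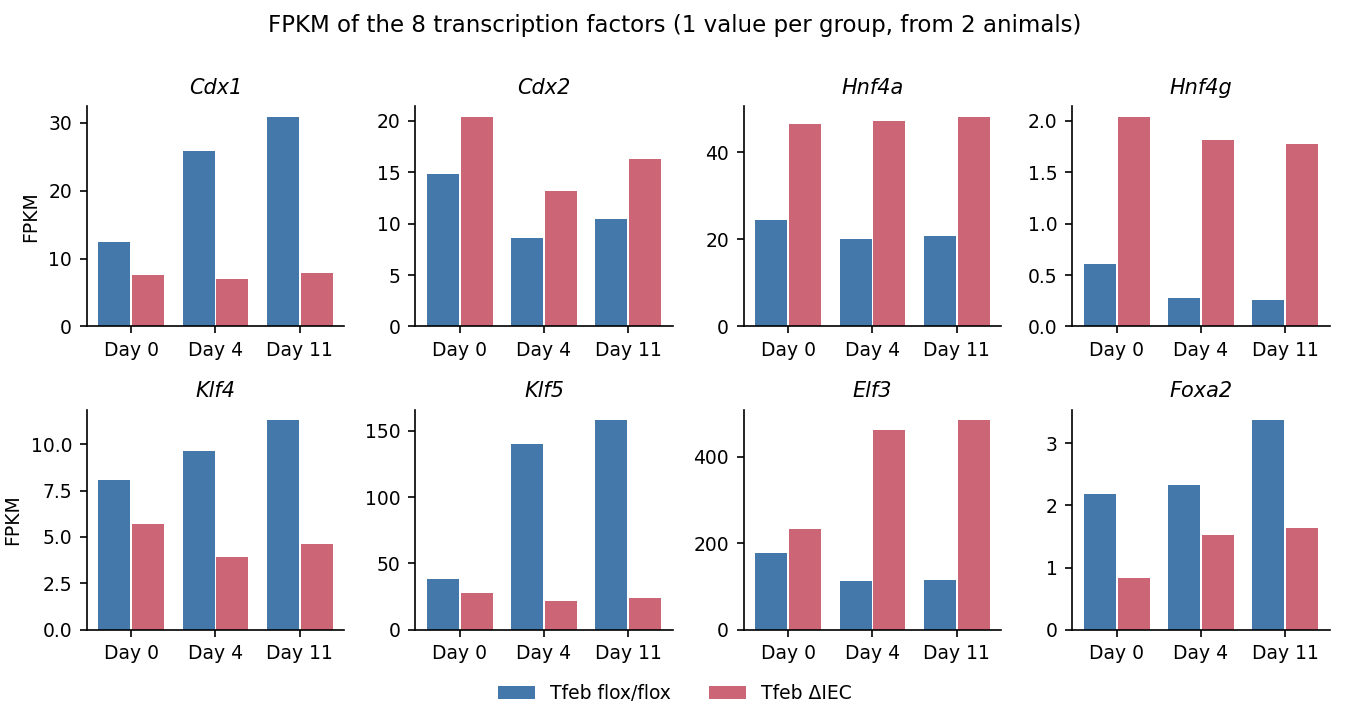
Pooled FPKM of each of the 8 genes (linear axes from 0, a different range for each gene) on Days 0, 4 and 11, with blue bars for Tfeb flox/flox and red bars for Tfeb ΔIEC, 1 value per group and no error. Klf5 and Cdx1 reach their high values in the blue bars of Days 4 and 11, at 140 and 158 FPKM and at 25.9 and 30.9 FPKM, and Elf3 in the red bars, at 463 and 485 FPKM.

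Klf5 (ENSMUSG00000005148.7, mm10 chromosome 14 from 99298691 to 99313405) differed most between the genotypes of all members on Days 4 and 11, measured on the log2(FPKM + 1) scale. It had 38.0 FPKM in Tfeb flox/flox and 27.5 FPKM in Tfeb ΔIEC on Day 0, 140 and 21.5 FPKM on Day 4, and 158 and 24.0 FPKM on Day 11. The level was thus close in the genotypes on Day 0, high in the controls on Days 4 and 11, and in Tfeb ΔIEC near its Day 0 value throughout. In FPKM the Tfeb ΔIEC level was 1.38-fold lower on Day 0, 6.49-fold lower on Day 4 and 6.59-fold lower on Day 11, and the log2 fold changes were -0.46, -2.64 and -2.67. The Day 4 change lay at percentile 5.07 of all genes tested. Between the separately normalized tables, Klf5 was 3.67-fold higher on Day 4 than on Day 0 in Tfeb flox/flox and 1.28-fold lower in Tfeb ΔIEC.

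Klf4 (ENSMUSG00000003032.8, chromosome 4 from 55527143 to 55532466) differed in the same direction as Klf5 and by less. It had 8.06 FPKM in Tfeb flox/flox and 5.71 FPKM in Tfeb ΔIEC on Day 0, 9.65 and 3.94 FPKM on Day 4, and 11.3 and 4.63 FPKM on Day 11. The Tfeb ΔIEC value was the lower of the pair on every day, and the log2 fold changes were -0.43, -1.11 and -1.12. The call was lost on Days 4 and 11, at -0.40 on both, when groups were scaled to equal FPKM sums, and with a pseudocount of 5 FPKM, at -0.71 and -0.76. Since KLF4 is known from goblet cells, their markers are given beside it. Of 7 goblet markers on Day 4, 4 were called lower and 2 higher, and their sum was 78500 FPKM in Tfeb flox/flox and 16300 FPKM in Tfeb ΔIEC. On Day 11, 4 were again lower and 2 higher, with sums of 77400 and 15400 FPKM, and on Day 0, 2 were lower and 2 higher, with sums of 22800 and 15000 FPKM. The markers went both ways: Tff3, Zg16, Agr2 and Fcgbp were the lower ones on Day 4. Of these, Tff3, Zg16 and Agr2 have short transcripts of 493, 659 and 784 nt. The higher ones were Muc2, with 645 and 1890 FPKM, and Clca1, with 432 and 1300 FPKM. Muc2 has a median annotated transcript length of 711 nt, so a correction for length treats it as a short gene too. The median log2 fold change of the 7 markers on Day 4 was -1.84. After subtraction of the median of genes of like length it was -0.54, with 1 higher and 2 lower. Only Fcgbp of these markers was listed at 0, in Tfeb ΔIEC on Day 0. The part of goblet cell number in the level of Klf4 was not tested, and in bulk RNA fewer cells of a type and less RNA per cell cannot be told apart.

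The ratio of Klf4 to Klf5 within a group does not depend on how the tables were scaled. It was 0.212 in the controls and 0.208 in Tfeb ΔIEC on Day 0, 0.0691 and 0.183 on Day 4, and 0.0712 and 0.193 on Day 11. The genotypes thus had nearly the same ratio on Day 0, and on Days 4 and 11 the controls held less Klf4 for each unit of Klf5, by 2.65-fold on Day 4. Markers of stem and dividing cells were low on Days 4 and 11 in both genotypes: the sum of the 6 genes was 17.0 and 25.2 FPKM in Tfeb flox/flox and Tfeb ΔIEC on Day 0, 6.64 and 5.03 FPKM on Day 4, and 6.85 and 5.34 FPKM on Day 11. All 6 passed the filter on Day 0, 2 on Day 4 and 3 on Day 11, and none of those that passed was called. The high Klf5 of the controls on Day 4 stood beside a lower sum of these markers than on Day 0. Their part in the Klf5 level was not tested.

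Cdx1 (ENSMUSG00000024619.8, chromosome 18 from 61018862 to 61036199) was lower in Tfeb ΔIEC on every day. It had 12.5 FPKM in Tfeb flox/flox and 7.54 FPKM in Tfeb ΔIEC on Day 0, 25.9 and 6.98 FPKM on Day 4, and 30.9 and 7.94 FPKM on Day 11. As for Klf5, the controls were high on Days 4 and 11, when their FPKM summed over all genes was also higher than on Day 0. The Tfeb ΔIEC groups lay between 6.98 and 7.94 FPKM. The difference was 1.66-fold on Day 0, 3.71-fold on Day 4 and 3.89-fold on Day 11, with log2 fold changes of -0.66, -1.75 and -1.83. The Day 4 value was -0.98, just short of 2-fold, with division by the sum of FPKM.

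Cdx2 (ENSMUSG00000029646.3, chromosome 5 from 147300805 to 147307270), the paralog of Cdx1 that is known as the master factor of intestinal identity, lay on the other side of 0. It had 14.8 FPKM in Tfeb flox/flox and 20.4 FPKM in Tfeb ΔIEC on Day 0, 8.63 and 13.2 FPKM on Day 4, and 10.5 and 16.3 FPKM on Day 11. The Tfeb ΔIEC value was higher on every day, by 1.37-fold, 1.53-fold and 1.56-fold, and none of these reached 2-fold. With division by the sum of FPKM the log2 fold change was 1.33 on Day 4 and 1.37 on Day 11, so that Cdx2 was then called higher on both days. The level was lower on Day 4 than on Day 0 in both genotypes, by 1.72-fold in Tfeb flox/flox and 1.54-fold in Tfeb ΔIEC. Because the paralogs differed in opposite directions, their ratio separated the genotypes further than either gene. Cdx1 to Cdx2 was 0.843 in the controls and 0.37 in Tfeb ΔIEC on Day 0, 3 and 0.528 on Day 4, and 2.95 and 0.486 on Day 11. Cdx1 was thus the more abundant CDX transcript in the controls on Days 4 and 11 and Cdx2 in all other groups, and the ratio differed by 2.28-fold, 5.69-fold and 6.06-fold.

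Hnf4a (ENSMUSG00000017950.16, chromosome 2 from 163492318 to 163572910) was higher in Tfeb ΔIEC on all days, Day 0 included. It had 24.4 FPKM in Tfeb flox/flox and 46.5 FPKM in Tfeb ΔIEC on Day 0, 20 and 47.1 FPKM on Day 4, and 20.8 and 48.1 FPKM on Day 11. The level changed little between the days within a genotype, so the log2 fold change of 0.91 on Day 0 was close to the 1.20 and 1.17 of Days 4 and 11, and only the latter passed 2-fold. After subtraction of the median of genes of like length they were 0.58 and 0.57, below 2-fold. The table gives its position also for Hnf4aos, R3hdml and Gm25881, all listed at 0 in both genotypes on Day 4, and the library protocol named in the labels does not mark strand, so reads from overlapping genes could not be told apart.

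Hnf4g (ENSMUSG00000017688.14, chromosome 3 from 3508030 to 3658052), the second HNF4 receptor of the gut, was low in every group. It had 0.612 FPKM in Tfeb flox/flox and 2.04 FPKM in Tfeb ΔIEC on Day 0, 0.281 and 1.81 FPKM on Day 4, and 0.26 and 1.78 FPKM on Day 11. It passed the filter through the Tfeb ΔIEC value alone. Its log2 fold changes of 0.92, 1.13 and 1.14 were near those of Hnf4a, while in FPKM it was 3.34-fold, 6.44-fold and 6.86-fold higher in Tfeb ΔIEC. The call depends on the pseudocount: with 5 FPKM in place of 1 the Day 4 value was 0.37. Hnf4a to Hnf4g was 39.8 in the controls and 22.8 in Tfeb ΔIEC on Day 0, 71.0 and 26.0 on Day 4, and 80 and 27.0 on Day 11. Hnf4a therefore made up nearly all HNF4 transcript in each group. The size of these ratios in the controls rests on Hnf4g values below 1 FPKM, whose counting error is unknown.

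Elf3 (ENSMUSG00000003051.13, chromosome 1 from 135248561 to 135284084) was the member with the largest excess in Tfeb ΔIEC on Days 4 and 11, again on the log2(FPKM + 1) scale. It had 177 FPKM in Tfeb flox/flox and 232 FPKM in Tfeb ΔIEC on Day 0, 113 and 463 FPKM on Day 4, and 115 and 485 FPKM on Day 11. The controls were lower on Days 4 and 11 than on Day 0, by 1.57-fold on Day 4, and the Tfeb ΔIEC groups were higher, by 2.00-fold. The genotypes differed by 1.31-fold on Day 0, 4.09-fold on Day 4 and 4.22-fold on Day 11, with log2 fold changes of 0.38, 2.02 and 2.07, and the Day 4 change lay at percentile 92.8 of all genes. The table gives the position of Elf3 also for Rnpep and Gm26642. Rnpep had 13.8 FPKM in Tfeb flox/flox and 27.9 FPKM in Tfeb ΔIEC on Day 4, so its level was far below that of Elf3, and Gm26642 was listed at 0.

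Foxa2 (ENSMUSG00000037025.11, chromosome 2 from 148042877 to 148046969) was low and was called on no day. It had 2.18 FPKM in Tfeb flox/flox and 0.826 FPKM in Tfeb ΔIEC on Day 0, 2.33 and 1.53 FPKM on Day 4, and 3.37 and 1.64 FPKM on Day 11. In FPKM the Tfeb ΔIEC level was 2.64-fold, 1.52-fold and 2.05-fold lower. The log2 fold changes were -0.80, -0.40 and -0.73. The Day 0 value passed 2-fold with a pseudocount of 0.1 FPKM, at -1.30, and after subtraction of the median of genes of like length, at -1.03. The Day 4 value was 0.15, with the opposite sign, when each group was divided by the sum of its FPKM. The sum of the 6 enteroendocrine markers, cells in which Foxa2 is known, was 70.2 and 72.6 FPKM in Tfeb flox/flox and Tfeb ΔIEC on Day 0 and 261 and 87.1 FPKM on Day 4. Pyy alone set the Day 4 sum, at 209 and 17.8 FPKM, and without it the other 5 genes summed to 51.6 and 69.3 FPKM. Of the 5 that passed on Day 4, 2 were called lower (Pyy and Cck) and none higher. Gcg had 16.8 and 33.4 FPKM and Chga 17.8 and 17.9 FPKM, and on Day 11 Gcg was called higher. With division by the sum of FPKM, 2 were higher and 2 lower on Day 4. After subtraction of the median of genes of like length, 1 was higher and 1 lower. The part of these cells in the level of Foxa2 was not tested.

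**Figure D2:**
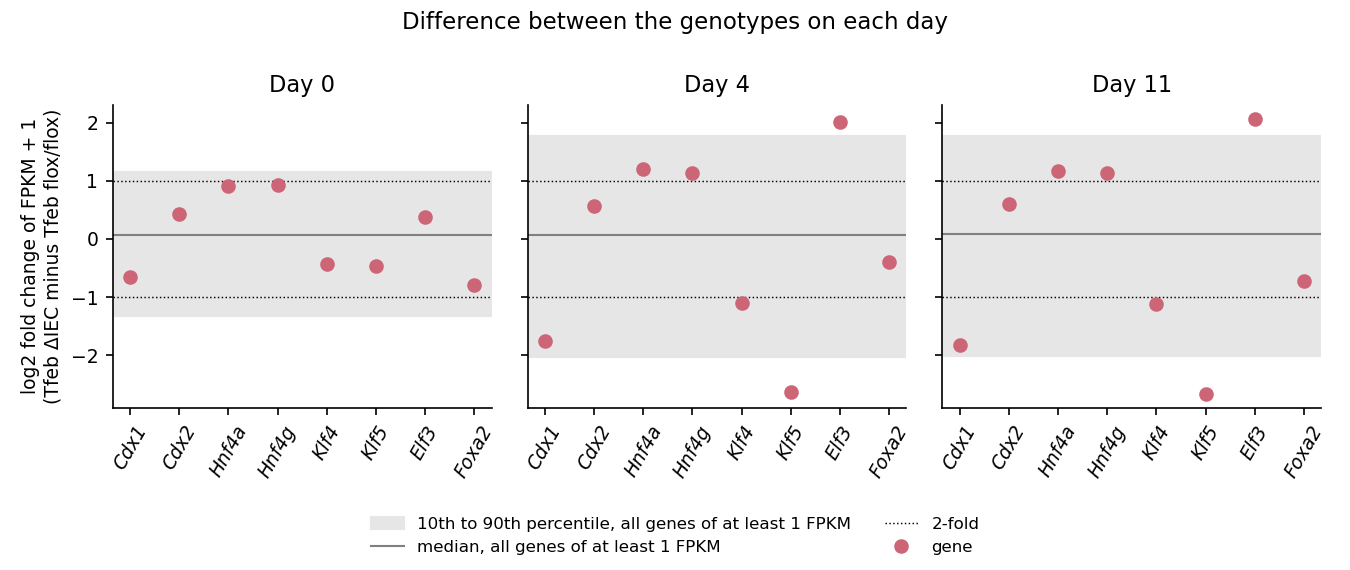
Log2 fold change of FPKM + 1 (Tfeb ΔIEC minus Tfeb flox/flox) of each of the 8 genes on Days 0, 4 and 11, with the median (line) and the 10th to 90th percentile (grey band) of all genes of at least 1 FPKM and dotted lines at 2-fold. All 8 points lie between the dotted lines on Day 0. On Days 4 and 11 Klf5, at -2.64 and -2.67, lies below the band and Elf3, at 2.02 and 2.07, above it.

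The order of the members by FPKM showed the same contrast. In Tfeb ΔIEC animals it was Elf3, Hnf4a, Klf5, Cdx2, Cdx1, Klf4, Hnf4g and Foxa2, from high to low, on all 3 days. In Tfeb flox/flox animals it was Elf3, Klf5, Hnf4a, Cdx2, Cdx1, Klf4, Foxa2 and Hnf4g on Day 0, and on Days 4 and 11 Klf5 came first, before Elf3, Cdx1, Hnf4a, Klf4, Cdx2, Foxa2 and Hnf4g. Without values per animal, whether neighbours in these orders differ beyond the spread between animals is unknown. Elf3 held 63.8% of the summed FPKM of the 8 genes in the controls and 67.7% in Tfeb ΔIEC on Day 0, 35.4% and 82.8% on Day 4, and 32.8% and 82.3% on Day 11. The ratio of Elf3 to Klf5, chosen after the values were seen as the pair with the largest opposite differences on the log2(FPKM + 1) scale, was 4.67 in the controls and 8.44 in Tfeb ΔIEC on Day 0, 0.81 and 21.5 on Day 4, and 0.728 and 20.2 on Day 11. It differed by 1.81-fold on Day 0 and by 26.6-fold on Day 4. Hnf4a to Cdx2, also chosen afterwards, differed by 1.39-fold, 1.54-fold and 1.48-fold on Days 0, 4 and 11.

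**Figure D3:**
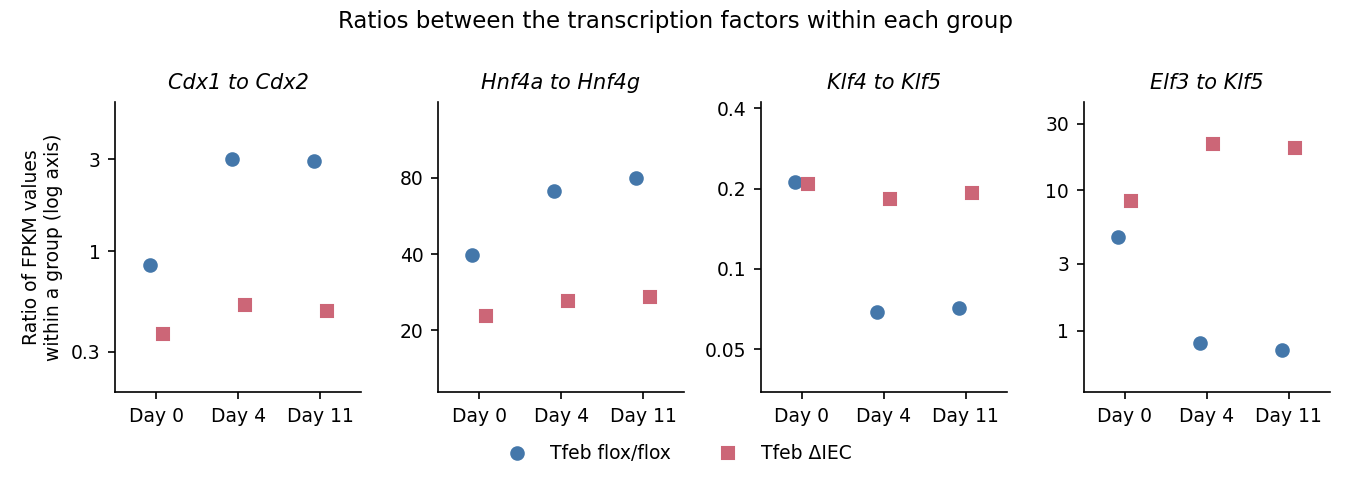
Ratios of FPKM within each group (log axes, a different range for each pair) on Days 0, 4 and 11, with blue circles for Tfeb flox/flox and red squares for Tfeb ΔIEC, 1 value per group. Cdx1 to Cdx2 is 3 in the controls and 0.528 in Tfeb ΔIEC on Day 4, and Elf3 to Klf5 is 0.81 and 21.5.

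Differences between the genotypes varied with transcript length over all genes, so each member is placed beside genes of like length. Genes that passed the filter were divided into 10 bins of equal size by the median length of their annotated transcripts. On Day 4 the median log2 fold change was -1.89 in the bin of 38 to 484 nt and 0.65 in the bin of 2827 to 3479 nt. On Day 0 the medians of the shortest and the ninth bin were -1.11 and 0.41. The members have median lengths from 1750 nt (Cdx1) to 4359 nt (Hnf4a) and so fall in bins whose Day 4 medians lie between 0.18 and 0.65. Klf5, of 3102 nt, lay at percentile 0.428 of the 935 genes of its bin, and Klf4, of 3029 nt, at percentile 8.24 of the same bin. Cdx1 lay at percentile 4.38 of its bin. The members called lower thus had a lower percentile among genes of their own length than among all genes. Elf3, of 1998 nt, lay at percentile 89.1 of its bin, Hnf4a at 72.1 and Hnf4g, of 2276 nt, at 70.1. With the bin median subtracted, Elf3 was the only member called higher on Days 4 and 11, with log2 values of 1.49 and 1.57, and the lower calls numbered 3 on Day 4 and 4 on Day 11, with Foxa2 added at -1.22. Cdx2, of 2261 nt, was near the middle of its bin, at percentile 51.3. The part of transcript length in these results was not tested.

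**Figure D4:**
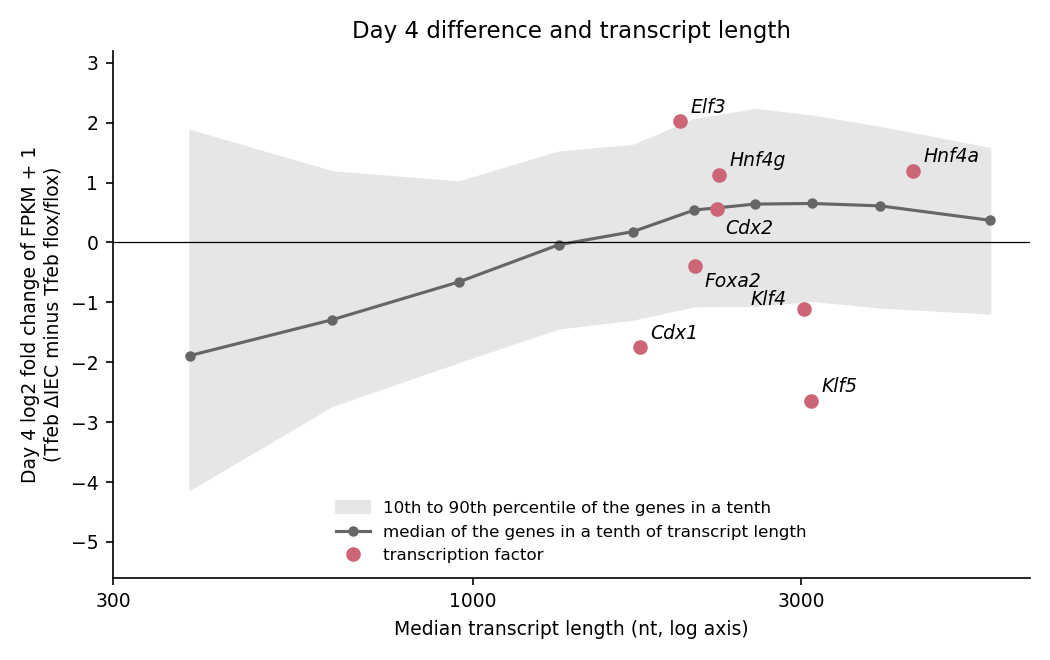
Day 4 log2 fold change of FPKM + 1 (Tfeb ΔIEC minus Tfeb flox/flox) against median transcript length (nt, log axis), with the median (grey line) and the 10th to 90th percentile (grey band) of the genes in each of 10 length bins and the 8 genes as red points. Klf5, at -2.64, lies far below the band of genes of its length, Cdx1 at -1.75 and Klf4 at -1.11 just below it, and Cdx2 on the line of medians.

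Over the 6 group values, each gene's profile of log2(FPKM + 1) was centred on its own mean and compared with those of other members by the root-mean-square distance. On this scale Hnf4a and Hnf4g were the closest pair of members, at 0.07, and Klf5 and Elf3 the farthest apart, at 1.96. The first value rests on the pseudocount, since Hnf4g is low: with 0.1 FPKM, tried after the values were seen, Hnf4a and Hnf4g were 0.55 apart and no longer the closest pair, and Hnf4g and Klf5, at 2.25, were farther apart than Klf5 and Elf3, at 1.98. Cdx1 was nearer to Klf5 (0.38) and Klf4 (0.39) than to its paralog Cdx2 (1.14). Cdx2 was nearest to Hnf4g (0.32) and Hnf4a (0.35), though at 0.79 from Hnf4g and 0.36 from Hnf4a with the smaller pseudocount, and Klf4 was nearer to Foxa2 (0.32) than to Klf5 (0.74). Among the 5575 genes of at least 5 FPKM in at least 1 group, the nearest to Klf5 were Gadd45gip1 (0.072), Abhd17a (0.084) and 0610012G03Rik (0.101). Those nearest to Elf3 were Errfi1 (0.083), Ndrg1 (0.084) and Lmo7 (0.094). Gadd45gip1 had 10.4 FPKM in Tfeb flox/flox and 1.04 FPKM in Tfeb ΔIEC on Day 4, and Ndrg1 had 17.1 and 75.4 FPKM. For Cdx1 the nearest were Nt5c (0.060), Rpl39-ps (0.064) and Gm13213 (0.068), of which Rpl39-ps is a ribosomal pseudogene that can share reads with its parent gene, a limit that also holds for Rpl10 with its pseudogene copies. For Cdx2 they were Necap2 (0.089), Fam109a (0.103) and Nop58 (0.103), and for Hnf4a Tram1 (0.059), Ets2 (0.064) and Baiap2l1 (0.065). For Hnf4g they were Fbxo22 (0.053), Tram1 (0.063) and Hnf4a itself (0.067). For Klf4 they were Rpl10 (0.062), Pmm1 (0.069) and Gm11478 (0.070), and for Foxa2 Dguok (0.12), Tulp4 (0.124) and Rhog (0.136). These distances describe 6 pooled values, of which those of Days 4 and 11 are nearly the same.

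Relatives of the members in the same gene families were mostly low. Of 23 relatives, 9 passed the filter on Day 4, 6 were listed at 0 in all groups, and 5 reached 5 FPKM in any group. Klf10, a Krüppel-like factor induced by TGF-β, was called higher, at 1.42 FPKM in Tfeb flox/flox and 11.2 FPKM in Tfeb ΔIEC on Day 4 and 1.37 and 11.2 FPKM on Day 11, after 1.30 and 2.17 FPKM on Day 0. Elf2 was the relative called lower, named because it was the only such gene, with 3.1 and 0.79 FPKM on Day 4. Klf6 had 11.7 and 22.5 FPKM and Klf3 8.58 and 6.63 FPKM on Day 4, within 2-fold on the log2(FPKM + 1) scale. Ehf, an ETS factor close to Elf3, had 14.1 and 19.7 FPKM, and Foxa3 1.81 and 3.1 FPKM. The median of the 9 was 0.15, beside 0.06 for all genes and 0.08 for the members, and it was -0.16 after subtraction of the length bin medians, with 2 higher and 2 lower. With division by the sum of FPKM it was 0.68, with 4 higher and none lower.

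Other transcription factors of the gut epithelium were followed as a list, from which 2 genes had been left out after values were seen. Of 28 listed, 15 passed on Day 4, of which 2 were called higher and 7 lower, with a median log2 fold change of -0.81, which was -0.19 with each group divided by the sum of its FPKM (5 higher and 2 lower). On Day 11, 2 were higher and 7 lower of 16, and on Day 0, 3 were higher and 1 lower of 15. Among those lower on Day 4 was Tcf7l2, the Wnt effector of the crypt, with 100 FPKM in Tfeb flox/flox and 34.3 FPKM in Tfeb ΔIEC, and it was also lower on Day 0, with 51.2 and 17.7 FPKM. Sox9, a factor of crypt base cells, had 5.85 and 1 FPKM on Day 4, Hes1, a Notch target, had 6.94 and 1.99 FPKM, and Id1, an inhibitor of basic helix-loop-helix factors, had 123 and 50.1 FPKM. Creb3l3, a membrane-bound factor of lipid metabolism, had 7.81 and 1.24 FPKM. The 2 called higher were Vdr, the vitamin D receptor, with 7.62 and 26.7 FPKM, and Tfcp2l1, with 3.4 and 8.49 FPKM. Within 2-fold on Day 4 on the log2(FPKM + 1) scale was Atoh1, the factor that starts the secretory lineage, with 6.26 and 12.7 FPKM. Also within it were Spdef, a goblet cell factor, with 10.3 and 12.4 FPKM, and Isx, with 5.46 and 10.8 FPKM. Myc, with 4.25 and 2 FPKM, and Grhl2, with 1.72 and 1.82 FPKM, were within it too. On Day 0 Spdef, with 9.1 and 22.9 FPKM, and Grhl2, with 3.44 and 8.7 FPKM, were called higher.

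Genes described as targets of the members were followed as lists taken from general knowledge. Of 14 measured CDX targets on Day 4, 8 were called higher in Tfeb ΔIEC and 2 lower, with a median of 1.62. Cdh17, the liver-intestine cadherin, had 23.0 FPKM in Tfeb flox/flox and 279 FPKM in Tfeb ΔIEC, Krt20, a keratin of surface cells, 101 and 931 FPKM, and the protease Mep1a 4.95 and 52.2 FPKM. The guanylin genes lay on the other side: Guca2a had 33200 and 9200 FPKM and Guca2b 63.5 and 8.75 FPKM. On Day 0, 4 were higher and 1 lower, with a median of 0.28. The list shares Car1, Guca2a, Krt20 and Slc26a3 with the colonocyte markers, 4 of its 16 genes and 4 of those 8. The colonocyte markers had 4 higher and 1 lower on Day 4, with a median of 1.06, and none higher and 2 lower on Day 0, with a median of -0.50. Their summed level was 59500 FPKM in Tfeb flox/flox and 39500 FPKM in Tfeb ΔIEC on Day 4, a direction set by Guca2a alone, since the other 7 markers summed to 26200 and 30300 FPKM. The part of these cells in the CDX target values was not tested. The median of the CDX targets on Day 4 stayed above 0 with a pseudocount of 0.1 or 5, with division by the sum of FPKM, with centring and with subtraction of the length bin medians, which gave 1.10 with 8 higher and 1 lower. The guanylin genes have short transcripts, of 594 and 651 nt, in a bin whose Day 4 median was -1.29.

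Of 12 measured HNF4 targets on Day 4, 6 were called higher and 2 lower, with a median of 0.92 that lay between 0.33 and 1.54 under the same alternatives and a range from -1.05 to 3.76. The 2 called lower are not named here. The highest were genes of the brush border: the myosin Myo1a had 10.8 FPKM in Tfeb flox/flox and 158 FPKM in Tfeb ΔIEC, villin (Vil1) 30.6 and 224 FPKM, and the protocadherin Cdhr2 7.23 and 57.4 FPKM. On Day 0 the counts were 1 higher and 2 lower, the median was 0.14 and the range -4.23 to 1.25. Vil1 is also the gene whose promoter drives Cre in the Tfeb ΔIEC animals, and it had 85.4 and 123 FPKM on Day 0. Of the epithelial markers in no target list, Epcam had 1200 and 1800 FPKM and Krt18 506 and 600 FPKM on Day 4, both within 2-fold, and Cdh1, the E-cadherin gene, had 24.5 and 164 FPKM, a difference close in size to that of Vil1 and Cdhr2 on the log2 scale (2.70 beside 2.83 and 2.83).

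Of 8 measured KLF targets on Day 4, 1 was called higher and 4 lower, with a median of -0.87, which was -0.33 with none called lower when each group was divided by the sum of its FPKM. The cell cycle inhibitor Cdkn1a, known as a KLF4 target, had 259 FPKM in Tfeb flox/flox and 76.8 FPKM in Tfeb ΔIEC, and it was also lower on Day 0, with 207 and 75.5 FPKM. Ccnd1, the cyclin D1 gene known as a KLF5 target, had 15.3 and 5.17 FPKM on Day 4 and 10.8 and 9.76 FPKM on Day 0. Pdgfa, with 30.2 and 13.3 FPKM, and Birc5, with 10.4 and 4.26 FPKM and named after its value was seen, were the others called lower. Alpi, the intestinal alkaline phosphatase, was the only one called higher, listed at 0 in the controls and 1.66 FPKM in Tfeb ΔIEC. On Day 0 it had 2.9 and 1.43 FPKM, in the other direction. After subtraction of the length bin medians, none of the list was higher on Day 4 and 5 were lower, with a median of -1.12. A pseudocount of 5 FPKM also left none higher. Of 6 measured targets of ELF3 or FOXA factors, 1 was higher and 2 were lower, with a median of -0.21 that was 0.63 with division by the sum of FPKM and 0.02, with 1 higher and 1 lower, after subtraction of the length bin medians. Tff3 had 28800 and 2170 FPKM and Agr2 12300 and 3440 FPKM, both of which are goblet cell genes and stand in the goblet marker list as well, and Tgfbr2, the TGF-β receptor known as an ELF3 target, had 1.48 and 4.5 FPKM. The direct action of any member on these genes was not measured.

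**Figure D5:**
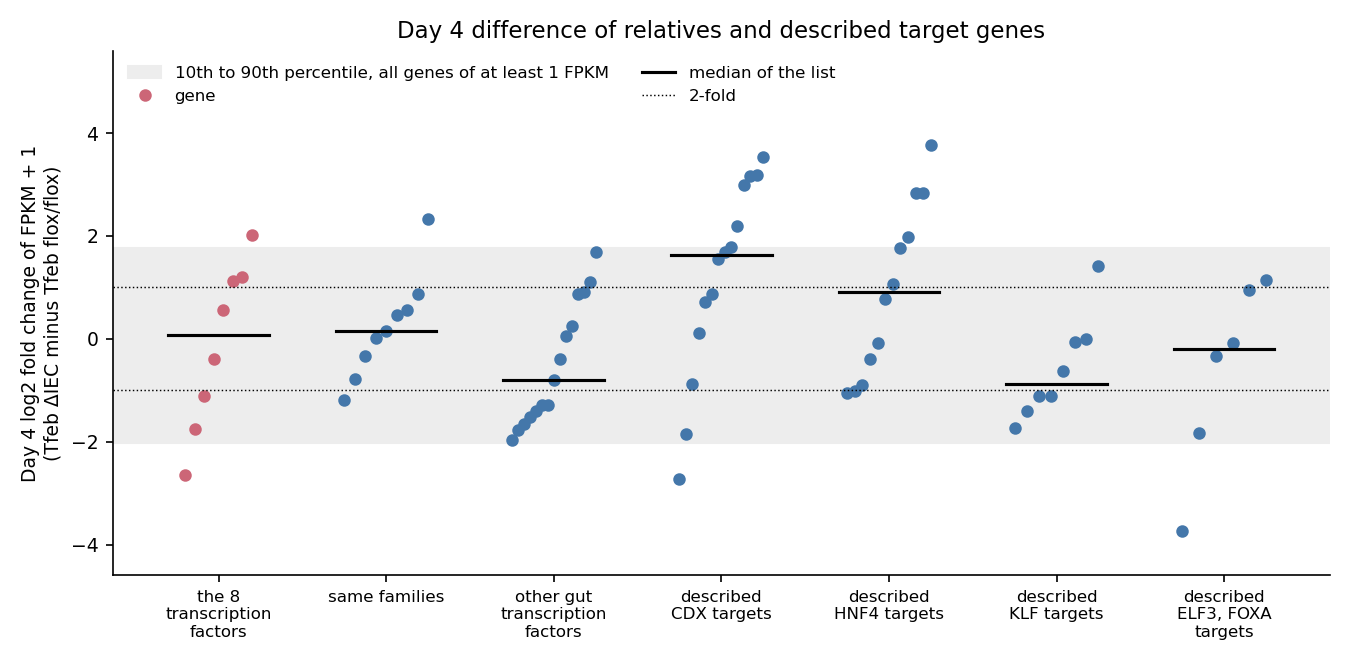
Day 4 log2 fold change of FPKM + 1 (Tfeb ΔIEC minus Tfeb flox/flox) of the 8 genes (red) and of the genes of 6 lists that passed the filter (blue, 1 point per gene, in rising order within a list), with the median of each list (black line), the 10th to 90th percentile of all genes (grey band) and dotted lines at 2-fold. The medians are 1.62 for CDX targets, 0.92 for HNF4 targets, -0.87 for KLF targets and -0.81 for the other gut transcription factors.

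Genes of the stomach and the foregut, which are known to appear where CDX2 is lost, were mostly listed at 0. Of 10 such genes none passed the filter on Day 0, when 9 were listed at 0 in both genotypes, and 8 were listed at 0 on Days 4 and 11. The exceptions on Day 4 were the trefoil genes Tff1 and Tff2, both chosen after their values were seen. Tff1 had 2.25 FPKM in Tfeb flox/flox and was listed at 0 in Tfeb ΔIEC, and Tff2 had 2.67 and 0.804 FPKM. Both were called lower, with a median of -1.36, and both passed the filter through the controls alone. Neither was called after subtraction of the length bin medians, with a median of -0.07, or with a pseudocount of 5 FPKM, with a median of -0.47. Division by the sum of FPKM left 1 called lower.

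The promoters were read to show which letters of known binding motifs stand at the members' start sites. TFEB binds the letters CACGTG, the E-box core, and more tightly TCACGTGA. RefSeq promoters of the GRCm38.p6 assembly, from 250 bases before to 50 after each start, gave 8 windows for 5 members (Cdx2, Elf3, Foxa2, Hnf4a and Klf4) of 32851 windows in all. CACGTG stood in 7.15% of all windows, and among the members in that of Klf4 alone, 182 bases before the start. TCACGTGA stood in 0.974% of all windows and in none of the 8. Words of the members' own families were searched on both strands after these were seen. The HNF4 word CAAAGTCCA stood in 0.475% of all windows and the CDX word TTTATG in 11.9%, and neither in the 8. The KLF word CCCCACCC stood in 9.99% of all windows and in 3 of the 8, of Elf3 and Foxa2, and the FOXA word GTAAACA in 3.65% and in that of Cdx2, 40 bases before the start. A match is a stretch of letters and not a measured site. Shown are Klf4, which was lower in Tfeb ΔIEC on Day 4 and holds the E-box, Elf3, which was higher and holds none, and Cdx2, which was not called and holds the FOXA word. All are on the minus strand and are given 5′ to 3′ from the most upstream base, without annotated exons, with the matched letters in capitals.
Klf4 chr4:55532476-55532725: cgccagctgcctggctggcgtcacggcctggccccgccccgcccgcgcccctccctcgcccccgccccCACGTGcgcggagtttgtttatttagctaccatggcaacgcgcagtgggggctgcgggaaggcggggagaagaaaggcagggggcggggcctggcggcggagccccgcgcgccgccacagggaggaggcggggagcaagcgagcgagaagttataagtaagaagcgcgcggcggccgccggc
Cdx2 chr5:147307271-147307499: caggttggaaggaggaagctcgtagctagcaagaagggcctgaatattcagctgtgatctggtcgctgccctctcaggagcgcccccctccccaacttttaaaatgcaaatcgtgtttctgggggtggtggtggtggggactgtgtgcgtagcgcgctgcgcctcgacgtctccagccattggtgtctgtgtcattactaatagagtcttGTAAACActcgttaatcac
Elf3 chr1:135258569-135258722: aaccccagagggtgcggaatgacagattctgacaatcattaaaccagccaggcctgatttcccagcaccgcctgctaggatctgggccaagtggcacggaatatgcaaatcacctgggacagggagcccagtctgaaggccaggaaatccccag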

How the data were processed

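Colon epithelial RNA came from 12 mice, 2 per genotype and day. Full-length cDNA made by template switching (SmartSeq2, slightly varied) was read in pairs on a MiSeq. TopHat2 with Bowtie placed these reads on mm10, and Cuffdiff was run by the authors on each day's 2 genotypes; the submitters' processing notes name TopHat2 2.0.14 and Cuffdiff 2.1.1. The 3 deposited tables hold 1 FPKM value per gene and genotype, made by the authors from both animals. They also hold the authors' log2 fold changes, test statistics, p-values and q-values, which were not used. The depth is unknown, and without values per animal in these tables no test was run here.

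For log2 fold changes 1 FPKM was added to each value. Calls needed 2-fold and 1 FPKM or more in at least 1 genotype. Transcript lengths are medians over basic transcripts of GENCODE M21, matched for 47218 of 47632 genes. Percentiles count genes of at least 1 FPKM. Positions are those of the deposited tables, counted from 1. The alternatives were a pseudocount of 0.1 or 5 FPKM, division by the sum of FPKM, centring on the median, subtraction of the median of the length bin, no filter or a filter at 5 FPKM, and calls at 1.5-fold or 4-fold.

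The members and the lists were chosen with earlier results of these data known. Members are always named; relatives and other gut transcription factors may be named from 5 FPKM in any group, at most 3 targets per list and direction by Day 4 change, and the 3 nearest profiles per member. Other genes are said to be chosen after their values were seen. A few genes are not reported here: 2 were taken out of the list of other gut transcription factors after values had been seen, and the HNF4 targets called lower are counted but not named. Python 3.11.15 with numpy 2.4.6, pandas 2.3.3 and matplotlib 3.10.9 was used.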

Additional observations from a re-analysis of the deposited data

Results flagged for a closer look

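The transcription factor Smad4, which carries TGF-β and BMP signals, differed in opposite directions on different days. Its log2 fold change was 1.46 on Day 0, with 2.51 FPKM in Tfeb flox/flox and 8.64 FPKM in Tfeb ΔIEC, and -1.65 on Day 4, with 10.1 and 2.55 FPKM. On Day 11 it was -1.70, with 9.76 and 2.31 FPKM. It was flagged because a call on Day 0 turned on Days 4 and 11, which is not particular to Smad4. The colonocyte marker Aqp8, named after its values were seen, was called lower on Day 0, with 198 and 30.1 FPKM. On Day 4 it was called higher, with 25.3 and 69.3 FPKM. The difference between the days was not tested for either gene, since each group has 1 pooled value.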

How the results depend on the processing

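No member called on Day 4 or 11 changed sign under any alternative, and of 120 values of single members 96 moved by less than 1.5-fold and 24 by more. Klf5 and Elf3 stayed past 2-fold on both days under the 5 alternatives of pseudocount, scaling and length, and Cdx1 on Day 11, while on Day 4 Cdx1 was at -0.98 with division by the sum of FPKM. On Day 0, with no member called otherwise, a pseudocount of 0.1 FPKM gave 1 higher and 1 lower, subtraction of the length bin medians 1 lower, and 1.5-fold calls 2 higher and 2 lower. Division by the sum of FPKM left 1 member called lower on Day 4 and 2 on Day 11, gave 4 called higher on each of these days with Cdx2 added, and raised the members' median to 0.74 on Day 4 and 0.61 on Day 11. Subtraction of the length bin medians left 1 called higher on Day 4 and 1 on Day 11. At 4-fold, 1 was higher and 1 lower on Day 4, and 1 and 1 on Day 11. No other setting moved the counts by more than 1.5-fold. The causes were not tested beyond the construction of each setting. No paired analysis was possible because each deposited value pools both animals of a group, and leaving out a replicate was not done for the same reason. The pooling and the unknown depth limit every statement: the spread between animals and the counting error of low genes such as Hnf4g and Foxa2 are unknown.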

Other observations

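Antimicrobial genes outside the lists of described targets differed between the genotypes on Day 4. Of 6 Paneth cell markers, 4 were called lower in Tfeb ΔIEC and none higher, and their sum was 5440 FPKM in Tfeb flox/flox and 661 FPKM in Tfeb ΔIEC, after 860 and 596 FPKM on Day 0. The median log2 fold change of the Paneth cell markers on Day 4 was -2.44 over the 5 that passed the filter. It was -1.61 with division by the sum of FPKM and -1.15 after subtraction of the length bin medians, and both of these settings left 3 called lower. The α defensin genes Defa24, with 1610 and 3.18 FPKM, and Defa17, with 297 and 3.61 FPKM, differed most on Day 4, and as members of a family of near-identical copies their values are uncertain. Ang4 had 3530 and 649 FPKM, and Mmp7, a defining Paneth cell gene, was listed at 0 in all groups. Of 6 markers of small-intestinal enterocytes, 3 passed on Day 4, with 1 higher and 1 lower. The lower one was Fabp6, with 24 and 2.65 FPKM, and the higher one Rbp2, with 1.24 and 7.56 FPKM. Fabp6 was also lower on Day 0, with 18.8 and 1.74 FPKM, when 2 of the 3 that passed were called lower. After subtraction of the length bin medians, 1 was higher and none lower on Day 4. The genes named here were chosen after their values were seen.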
